A study of Mus musculus with 13 samples.

Results

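The gastrocnemius is the large calf muscle of the hind limb, and in mice it is built mostly of fast, glycolytic fibres with a smaller slow, oxidative portion. Its transcriptome was described in the 5 obese mice that received vehicle + placebo, out of 13 mice in the series, and all 21868 genes of the deposited table were considered in these 5 mice. Members were chosen by treatment label alone, and no level was compared between treatments. The mice were male C57BL/6N, were 7 weeks old on arrival and acclimatized for 1 week. They ate a diet with 60 kcal% fat for 15 to 17 weeks. They were then returned to standard chow while they received PBS injections and placebo for 3 weeks. The form of the placebo is not described. "Untreated" therefore means free of semaglutide and ketone ester, not free of injections, and the muscle was taken after the switch of diet. No transgene or deletion is given in the labels, and each library came from 1 mouse. Poly-A RNA was sequenced from frozen muscle tissue, so that all cell types of the sampled piece enter the value of a gene. In such bulk samples, fewer cells of a type and less RNA per cell cannot be told apart.

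The deposited values were normalized counts per gene, from which between 15621189 and 17101549 whole reads per mouse were recovered. At these depths, 3 reads make up 1.75e-05% to 1.92e-05% of a library, counting error alone considered. Across the 8691 genes with a mean normalized count of at least 100 (termed measured genes), which held 99.1% of the reads, Pearson's r between pairs of mice was 0.982 to 0.990 on the log2 scale across genes, which are not independent replicates. No library stood apart from the other 4 across all genes, although single gene groups did so in single mice, as described for each group.

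Muscle fibres contract when myosin heavy chains, the motor proteins of the thick filament, pull on actin under the control of the troponins, and calcium is returned to its store by the SERCA pumps. Each of these proteins exists in fast and slow isoforms, which mark the fibre types. Contraction is paid for by glycogen breakdown, phosphocreatine and mitochondrial respiration, and these proteins dominate the mRNA of adult muscle.

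The transcriptome was concentrated in few genes. A total of 47 genes held 50% of the reads (43 to 49 in single mice) and 3027 genes held 90%. The 10 leading genes held 29.8% ± 0.36 (SD, n = 5) and the 20 leading genes 40.5% ± 0.52, and 19 genes were among the 20 leading genes of every mouse. The leading gene was mt-Co1, the mitochondrially encoded catalytic subunit of cytochrome c oxidase, with 5.74% ± 0.426 of the reads. It was followed by Myh4, the myosin heavy chain of type IIB fibres, with 5.50% ± 0.544, by Atp2a1, the SERCA pump of fast fibres, with 3.27% ± 0.226, and by Acta1, skeletal muscle actin, with 2.78% ± 0.20. Ckm, muscle creatine kinase, held 2.03% ± 0.151, Tnnt3, fast troponin T, held 1.62% ± 0.105, and Aldoa, a glycolytic aldolase, held 1.49% ± 0.0872. Ttn, which encodes the giant sarcomere spring titin, held 1.44% ± 0.0550 of the reads.

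Shares of reads favour long transcripts, so that levels of different genes were compared only per kilobase of exon, scaled to a sum of 1000000 per mouse. On this scale, 10 of the 20 leading genes were mitochondrially encoded, against 8 of 20 by share of reads. mt-Co1 had a level of 88985 ± 5325 (SD, n = 5), mt-Nd1 53725 ± 2220.0 and mt-Cytb 48586 ± 3056. Acta1, with a level per kilobase of 43423 ± 3719, was the leading nuclear gene, and its level exceeded that of mt-Nd4 (43401 ± 1725) by less than the spread between mice. Tnnt3 had 24618 ± 1936, Atp2a1 22601 ± 1847 and Myh4 21971 ± 2489, and these 3 neighbours in the order were not separated beyond their spread. By contrast, Ttn had a level per kilobase of only 296 ± 15.7, since its many reads are spread over a very long transcript. Length is not the only limit of these levels. Reads that match near-identical copies of a gene could be lost or wrongly assigned, and how they were counted is not known. Gapdh had a mean level of 359 against 12264 for Aldoa, and mt-Co2 had 5446 against 22758 for mt-Co3. Whether such reads account for these differences was not tested, and the shares of gene groups carry the same uncertainty.

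By group, the 13 mitochondrially encoded genes held 18.5% ± 1.12 of the reads, 14 fast contractile genes 17.1% ± 1.07 and 15 sarcomere genes shared by fibre types 6.88% ± 0.293. Glycolysis and glycogen genes (16 genes) held 4.33% ± 0.221, 12 creatine and calcium genes 3.43% ± 0.156, and 22 nuclear subunits of the respiratory chain and ATP synthase 1.08% ± 0.0725. The 11 slow contractile genes together held 0.163% ± 0.0735.

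**Figure D1:**
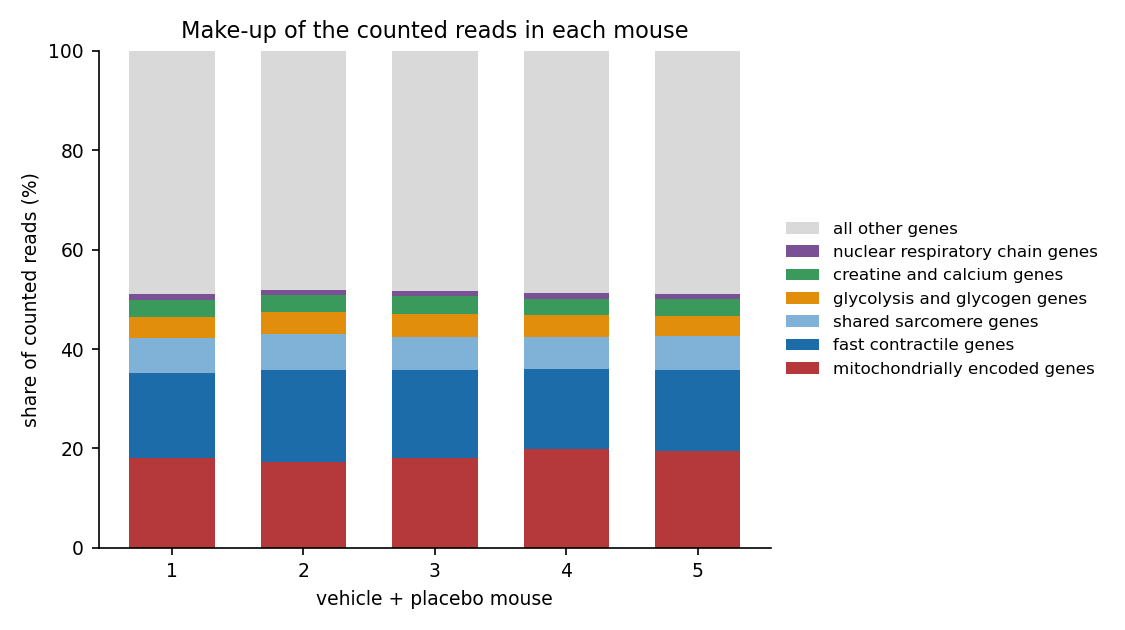
Stacked bars give the share of counted reads (%) on 6 gene lists and on all other genes, with 1 bar for each of the 5 vehicle + placebo mice. Mitochondrially encoded genes make up 17.2% to 19.9% and fast contractile genes 16.1% to 18.6% of the reads, and the bars differ little between mice.

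The isoform make-up was that of a fast muscle. Myh4 made up 88.9% ± 3.08 (SD, n = 5) of the summed myosin heavy chain level per kilobase, with a range of 85.7% to 92.6%. Myh1, of type IIX fibres, made up 5.75% ± 1.04, Myh2, of type IIA fibres, 4.53% ± 1.82, and Myh7, of slow type I fibres, 0.580% ± 0.306. The fast genes lie side by side, Myh2 at chr11:67171027-67197517, Myh1 at chr11:67200052-67224575 and Myh4 at chr11:67238029-67260446 (GRCm38, plus strand), whereas Myh7 lies at chr14:54970684-54994626. Myosin heavy chains share long stretches of near-identical sequence, and reads from these stretches could be assigned to the wrong copy, so that the small shares are uncertain. The fast isoform made up 99.5% ± 0.275 of the troponin T level (Tnnt3), 99.6% ± 0.205 of troponin I (Tnni2), 99.1% ± 0.422 of troponin C (Tnnc2) and 99.4% ± 0.256 of the SERCA level (Atp2a1). Developmental myosins were low. Myh8, the perinatal chain, made up 0.159% ± 0.00336 and Myh3, the embryonic chain, 0.0469% ± 0.00625. Mymx, needed for myoblast fusion, had 0 reads in every mouse, and Mymk, its partner in fusion, had 0.00, 0.00, 0.00, 4.44 and 2.33 normalized counts in mice 1 to 5.

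In total, 12596 genes had at least 3 reads in every mouse, 1980 in some mice, 1518 had fewer than 3 reads in every mouse and 5774 had 0 reads in all 5. Absence from the reads concerned several genes of interest to the study. Glp1r, the receptor on which semaglutide acts, had 0 reads in all 5 mice, which allows a share of up to 1.92e-05% in the shallowest library. Ffar3, a receptor for short-chain fatty acids and ketone bodies, also had 0 reads in every mouse. Hcar2, the β-hydroxybutyrate receptor, had 3.43, 0.00, 1.24, 2.22 and 3.49 normalized counts in mice 1 to 5, and Gipr, the receptor of the incretin GIP, 0.00, 1.2, 3.71, 0.00 and 1.16. Among the 8 receptors listed, only Ramp1, a receptor partner of the calcitonin family, was measured, at 427 ± 53.1 normalized counts (SD, n = 5). Of 6 listed markers of thermogenic fat, Ucp1 and Elovl3 were at 0 in all mice. Cidea and Dio2 had means of 31.1 and 19.3 normalized counts. Cox8a and Ppargc1a were measured, but neither is particular to thermogenic fat, so that their levels do not show its presence. Of 10 lymphocyte markers in the table, 0 were measured and 6 had fewer than 3 reads in every mouse. Of 9 neutrophil and mast cell markers, 0 were measured and 3 had fewer than 3 reads in every mouse. The mast cell markers Tpsb2 and Mcpt4 were detected, with means of 34.5 and 29.2 normalized counts.

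Ketone bodies are taken up by monocarboxylate transporters and oxidized in mitochondria by BDH1, SCOT and the acetyl-CoA thiolase ACAT1. Oxct1, which encodes SCOT, had 6268, 5549, 5739, 7786 and 6343 normalized counts in mice 1 to 5, and Acat1 had 4571, 3817, 3569.8, 4434 and 5052. Bdh1 was lower and more variable, with 1124, 716, 506, 1212 and 1396. It was lowest in mouse 3 and highest in mouse 5, with a range of 2.76-fold, and it was the only wide gene of 5 measured ketone body genes (0 without mouse 3). Per kilobase, the level was 213 ± 30.2 for Oxct1, 142 ± 19.8 for Acat1 and 31.6 ± 11.8 for Bdh1. The transporter Slc16a3 had 5534 ± 568 normalized counts and Slc16a1 894 ± 162, while Slc16a7 had 5.72 to 26.8.

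The spread between mice was small for most genes. The coefficient of variation (CV, SD divided by the mean over the 5 mice) had a median of 8.72% over the 8691 measured genes, with quartiles of 6.10% and 13.0%. Counting error alone would give a median CV of 5.14%, and 1240 genes (14.3%) had a CV at or below their own counting error. The median CV was 11.8% for 3103 genes with a mean of 100 to 300, 7.86% for 3461 genes with 300 to 1000, 6.75% for 1964 genes with 1000 to 10000 and 7.39% for 163 genes above 10000, where the median counting error was 0.743%. The common biological CV by edgeR, 1 value pooled over all measured genes, was 11.8%, and the median of its values for single genes was 9.55%. Both are model estimates and are not parts of the median CV of 8.72%.

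A gene was called wide when its highest mouse was at least 2 times its lowest. This applied to 359 of 8691 measured genes, or 4.13%, and these calls are descriptions without a test. Without mouse 1, 211 genes were wide. Of the genes in the 37 lists described here, 74 of 379 measured genes were wide. The highest value of a wide gene was most often in mouse 5 (147 genes), then in mouse 1 (73), mouse 4 (68), mouse 2 (47) and mouse 3 (24). The lowest was in mouse 1 for 138 genes, in mouse 3 for 103, in mouse 4 for 60, in mouse 5 for 43 and in mouse 2 for 15, and 83 genes were both highest in mouse 5 and lowest in mouse 1. In 427 genes (4.91%) the gap from 1 mouse to its nearest neighbour exceeded 0.71 of the whole range, Dixon's 95% critical value for 5 values, and 36 genes met both criteria. Chance alone exceeds this value in about 1 of 20 groups of 5.

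Over all measured genes, wide or not, mouse 1 was the highest of the 5 in 21.5%, mouse 2 in 21.2%, mouse 3 in 23.9%, mouse 4 in 16.8% and mouse 5 in 16.6%. Likewise, mouse 1 was the lowest in 15.7%, mouse 2 in 15.4%, mouse 3 in 18.3%, mouse 4 in 21.4% and mouse 5 in 29.2%. The counts given for each gene list are to be read against these percentages. Counts of wide genes are to be read against 4.13% of all measured genes, and against 74 of 379 measured genes in the lists. The lists were chosen with earlier results of these data known, so that these counts are descriptions only.

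**Figure D2:**
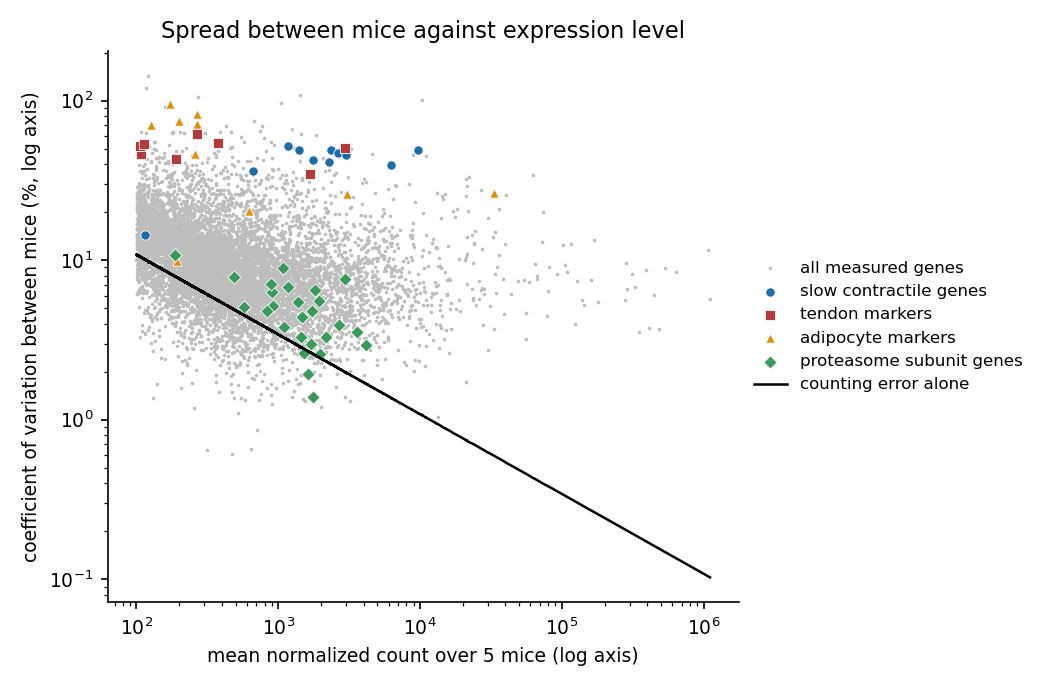
Each grey point is 1 of 8691 measured genes, with the mean normalized count over 5 mice on the x axis and the coefficient of variation between mice (%) on the y axis, both on log axes, and the black line is counting error alone. Slow contractile genes, tendon markers and adipocyte markers lie mostly above the cloud, whereas proteasome subunit genes lie near its lower edge.

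Among genes with a mean of at least 1000, Mfn2 had the lowest CV. Mfn2, which fuses mitochondria, had 13384, 13374, 13418, 13229 and 13617 normalized counts in mice 1 to 5, a CV of 1.04%. Adsl, a purine synthesis enzyme, had a CV of 1.2%, Rpl3l, a muscle-specific ribosomal protein, 1.27%, Dctn1, a dynactin subunit, 1.31%, and Cct4, a chaperonin subunit, 1.31%. Of these 5 values, all but that of Mfn2 were below counting error, so that the spread between mice was not detectable at this depth. Sars, Psmc2, Rnpepl1, Fastk and Ankrd52 followed with CVs of 1.35% to 1.43%. With columns scaled to equal totals, the first 5 genes had CVs of 2.05% to 2.77%. The 26 proteasome subunit genes had a median CV of 4.81% and 0 wide genes, and mouse 4 was the lowest for 17 of them. The 22 nuclear respiratory genes had a median of 6.22% and 0 wide genes, and 20 ribosomal protein genes had a median of 7.32%, although counts of ribosomal protein genes are uncertain because of their many pseudogene copies. Slc2a4, the insulin-responsive glucose transporter GLUT4, had 9127, 9218, 8800.2, 9010.1 and 8831 normalized counts, a CV of 2.02%.

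Among genes in common use as references, Rpl32 had a CV of 2.88% and 1629, 1717, 1689, 1625 and 1729 normalized counts, and Ywhaz had a CV of 7.52% and 715, 654, 585, 641 and 617. Gapdh, although a glycolytic enzyme, had a CV of 4.71%. The 16 reference genes had CVs of 1.68% to 14.1%, and the median was 6.69%, against 8.72% over all measured genes.

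Slow contractile genes varied widely between mice. Of 11 measured genes, 10 were wide (4.13% of all measured genes were), and the median CV was 45.7%. Myh7 had 14800.4, 6580.4, 3035, 12395 and 11819 normalized counts in mice 1 to 5, a range of 4.88-fold. Mouse 1 was the highest, mice 4 and 5 followed, mouse 2 was lower and mouse 3 the lowest. Slow troponin T, Tnnt1, had 3626, 1561, 787, 3003 and 2702, and slow troponin I, Tnni1, had 1929, 762, 371, 1377 and 1448. The ventricular and slow light chain Myl2 had 4252, 1994, 944, 2839 and 3246, in the same order of mice but for the exchange of mice 4 and 5. Atp2a2, the slow SERCA pump, had 8246, 4313, 2905, 8206 and 7492, with mice 1 and 4 nearly level. Mouse 1 was the highest for 9 of the 11 genes and mouse 3 the lowest for all 11, including Myl6b, the 1 gene that was not wide (128, 106, 100.2, 135 and 101). Averaged over the 11 genes, the log2 differences of mice 1 to 5 from the mean of the mice were 0.68, -0.31, -1.13, 0.37 and 0.40.

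As a list, fast contractile genes did not follow this order. Their median CV was 9.43%, 1 of 14 was wide, and their average log2 differences were 0.04, 0.10, -0.01, -0.08 and -0.05. Myh4 had 1024388, 1254491, 1109522, 1008163 and 930256 normalized counts in mice 1 to 5, with mouse 2 highest, as for 10 of the 14 genes. The wide gene was Myh2, with 69737, 49751, 33262, 74558 and 87882, which was highest in mouse 5 and lowest in mouse 3, the mouse with the lowest slow contractile genes. Myh1 was not wide but was also lowest in mouse 3. The Myh4 share of the myosin heavy chain level was 87.5%, 91.8%, 92.6%, 86.9% and 85.7% in mice 1 to 5. That of Myh1 was 6.37%, 4.55%, 4.70%, 6.69% and 6.43%, and that of Myh2 5.02%, 3.07%, 2.34%, 5.42% and 6.83%. Without mouse 3, 0 of the 14 genes were wide, and the median CV of the slow contractile genes was 30.4%.

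Several single genes from other lists were also lowest in mouse 3, whereas the 22 nuclear respiratory genes as a list were lowest in mouse 2 for 12 genes and in mouse 3 for 8. Mb, which encodes the oxygen store myoglobin, had 47919, 30706, 28026, 43450.3 and 50637 normalized counts, Actn2, an α-actinin of the Z-disc, 24862, 16547, 11620.1, 23479 and 28441, and Cryab, a small heat shock protein, 17547, 11080.5, 10582, 15973 and 17799. Hspb7, another small heat shock protein, had 14879, 9063, 4617, 9273 and 16959, a range of 3.67-fold. Csrp3 and Ankrd2 encode stretch-responsive proteins of the Z-disc and were chosen after their values were seen. Csrp3 had 3223, 1209.9, 399.7, 1783 and 2662, a range of 8.07-fold, and Ankrd2 had 4359.8, 1921, 787, 2805 and 3921. In both, mouse 3 was again the lowest and mouse 1 the highest. Ppargc1a, a coactivator of mitochondrial gene expression, had 3108, 2936, 1501, 1679.8 and 2487, with mice 3 and 4 low.

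Fatty acid use genes showed a smaller difference between mice. Mouse 5 was the highest for 12 and mouse 3 the lowest for 12 of 17 genes, with a median CV of 16.1% and 1 wide gene. Fabp3, the muscle fatty acid binding protein, had 7563, 4639.7, 4575, 7714 and 8912 normalized counts, Lpl, which frees fatty acids from lipoproteins, 16071, 11959, 9916, 19242 and 17270.2, and Pdk4, which restrains glucose oxidation, 16065, 15281, 14647, 21344 and 21243. For Fabp3 and Lpl, mice 2 and 3 were low and mice 1, 4 and 5 high. Angptl4, an inhibitor of lipoprotein lipase, was the wide gene, with 232, 171, 249.9, 288 and 390.0. The group had 0 wide genes without mouse 2 or mouse 5, and 2 with columns scaled to equal totals. The average log2 differences of the nuclear respiratory genes were 0.06, -0.08, -0.07, 0.05 and 0.05, with mice 2 and 3 the lowest as for Fabp3 and Lpl, although the differences were small. Those of the mitochondrially encoded genes were -0.03, -0.12, 0.04, 0.08 and 0.03, with mouse 2 the lowest. The value of mouse 3 includes mt-Nd3, which was highest in mouse 3 and had a CV of 101%. Counted by gene, mice 2 and 3 were each the lowest for 5 of the 13 mitochondrially encoded genes. Glycolysis and glycogen genes had a median CV of 6.94% and 0 wide genes of 16. Phka1, a regulatory subunit of phosphorylase kinase, had 21303, 24377, 28097, 23601 and 19262 and was highest in mouse 3, as were 9 of the 16 genes.

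**Figure D3:**
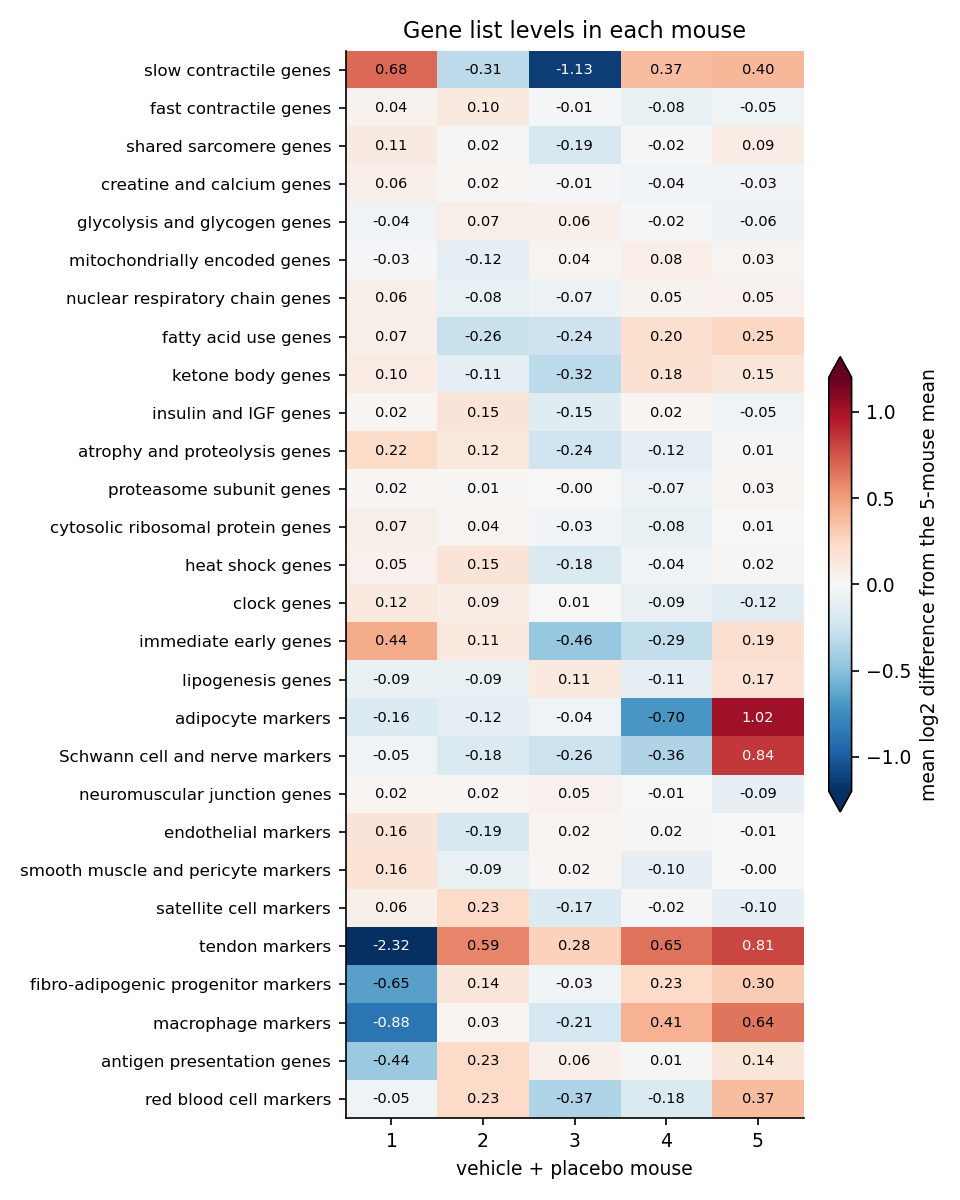
Each cell gives the mean log2 difference of a mouse (column) from the 5-mouse mean over the measured genes of a list (row), with red for higher and blue for lower, and colours saturate beyond 1.2. Slow contractile genes range from -1.13 in mouse 3 to 0.68 in mouse 1, tendon markers fall to -2.32 in mouse 1, and adipocyte markers reach 1.02 in mouse 5.

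Tendon and connective tissue genes were low in mouse 1. Tendon cells make a collagen matrix bound by small proteoglycans, and the gastrocnemius ends in the Achilles tendon. All 8 measured tendon markers were wide and lowest in mouse 1, whereas mouse 1 was the lowest for 15.7% of all measured genes. Fmod, the proteoglycan fibromodulin, had 453, 3459.9, 2798, 3823 and 4265 normalized counts in mice 1 to 5. Comp, a matrix protein of cartilage and tendon, had 11.4, 312, 241, 304 and 468, a range of 40.9-fold in which mouse 1 rested on few reads. Chad, the matrix protein chondroadherin, had 20.6, 479, 444, 399 and 538, and Tnc, tenascin C, had 17.2, 142, 96.5, 137 and 173. In these 4 genes mice 2 to 5 lay within a 2-fold range, and mouse 1 was below all of them. Thbs4, a thrombospondin of the tendon matrix, was less extreme, with 704, 1965, 1661, 1813 and 2205. Of the 11 listed markers, 3 were below the minimum for measured genes, and among them Scx, the transcription factor of tendon cells, had 66.4, 77.0, 81.7, 69.9 and 94.3, so that mouse 1 was the lowest by a small margin. The summed level of the 11 markers made up 0.00709% of the reads in the lowest mouse and 0.0438% in the highest. Without mouse 1, 0 of the 8 measured markers were wide and their median CV was 17.9%.

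Markers of fibro-adipogenic progenitors, the connective tissue cells between fibres, differed in the same direction. Of 12 measured markers, 8 were wide (4.13% of all measured genes were) and 9 lowest in mouse 1. Col1a1, the main chain of type I collagen, had 611, 1658, 1654, 1703 and 1736 normalized counts, with mice 2 to 5 nearly level. Col3a1, of type III collagen, had 883, 1838, 1706, 1831 and 1646, Dcn, the proteoglycan decorin, 3196, 6916, 5655, 6447 and 7358, and Pdgfra, the receptor that defines these cells, 233, 439, 391, 477 and 501. Ly6a and Pi16 mark stem-like subsets of these cells and were not wide. Ly6a had 592, 496, 525, 632 and 541, and Pi16 had 287, 358, 272, 404 and 394. Abi3bp, an extracellular matrix protein, and Rcn3, a collagen chaperone, are outside the lists and also set mouse 1 apart, with 182, 391, 354, 375 and 384 for Abi3bp and 76.7, 160.1, 152, 157 and 169 for Rcn3. Without mouse 1, 0 of the 12 markers were wide and their median CV was 11.7%, against 26.2% with all mice.

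Macrophage markers were low in mouse 1 and highest in mouse 5. All 7 measured markers were wide (4.13% of all measured genes were). All 7 were lowest in mouse 1 and 6 were highest in mouse 5. Csf1r, the receptor of the macrophage growth factor, had 90.4, 144, 171, 249 and 309.7 normalized counts, Mrc1, the mannose receptor of resident macrophages, 60.6, 166, 135, 212 and 217, Lyz2, lysozyme, 259.8, 459, 337, 556 and 736, and C1qa, a complement subunit, 66.4, 126, 121, 167 and 209.6. Class II antigen presentation genes had the same lowest mouse, and the 4 wide genes among 8 measured antigen presentation genes were of this class (0 were wide without mouse 1), with 90.4, 228, 178, 211 and 213 for H2-Aa and 231, 516, 402, 476 and 568 for Cd74. The whole macrophage list of 12 markers made up 0.00395% to 0.0119% of the reads. Without mouse 1, 3 of the 7 markers were wide. Gpnmb, a glycoprotein of lipid-laden macrophages, had 35.5, 71.0, 100.2, 115 and 219 and shared both the lowest and the highest mouse. All 8 measured tendon markers, all 7 macrophage markers and 9 of 12 progenitor markers were thus lowest in mouse 1, and the part of one cell type in the values of another was not tested.

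Some other cell type markers had 0 wide genes. Endothelial markers had a median CV of 12.2% with 0 of 12 wide, and mouse 1 was the highest for 7 of them (without it, the median CV was 8.05%), for example Pecam1 with 1305, 1076, 1126, 990.2 and 1146 normalized counts. Smooth muscle and pericyte markers had a median CV of 12.3% with 0 of 9 wide, or 7.86% without mouse 1. Neuromuscular junction genes had a median CV of 10.7% with 0 of 10 wide, and Musk, the receptor kinase that organizes the junction, had 1123, 1249.6, 1079, 859 and 977. Of 9 satellite cell markers, 4 were measured and 0 wide, among them Des, which fibres also express. Pax7, the defining factor of these cells, was below the minimum for measured genes, with 43.5, 73.4, 55.7, 73.2 and 45.4 and its lowest value in mouse 1.

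Adipocyte markers were high in mouse 5. Of 10 measured markers, 6 were wide and 9 were highest in mouse 5, whereas mouse 5 was the highest for 16.6% of all measured genes. Adipoq, the fat cell hormone adiponectin, had 187, 234, 221, 99.8 and 595 normalized counts in mice 1 to 5, and Lep, leptin, had 167, 135, 92.8, 22.2 and 451. Plin1, the main lipid droplet coat of fat cells, had 120.2, 134, 199, 93.1 and 459, and Cidec, which enlarges lipid droplets, had 215, 173, 188, 101 and 649. In these 4 genes mouse 5 was above the other 4, and mouse 4 was below all of them. Over the 10 measured markers, mouse 4 was the lowest for 4, mouse 2 for 3 and mouse 1 for 2. The 2 lowest in mouse 1 were the wide markers Cfd and Pck1. Fabp4, a fatty acid binding protein shared with endothelial cells, had 2768, 2463, 2681, 2816 and 4409, with mouse 5 alone raised. Carbonic anhydrase 3, Car3, which muscle fibres also express, had 39429, 34880.0, 23864, 24069.7 and 42681, with mice 3 and 4 low. The glycerol channel Aqp7 had 209, 166, 200.5, 181 and 208 and was not wide. The average log2 differences of the list were -0.16, -0.12, -0.04, -0.70 and 1.02. The 12 markers together made up 0.147% to 0.269% of the reads, most of it Car3. Without mouse 5, the median CV of the list was 25.6%, against 57.9% with all mice.

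Scd1, a desaturase of fatty acid synthesis, had 669, 984, 1440.3, 538 and 2572 normalized counts and was also highest in mouse 5 and lowest in mouse 4, whereas Fasn, fatty acid synthase, had 430.3, 336, 428, 303 and 396. Scd2, a second desaturase, had 368, 453, 999, 702 and 491 and was highest in mouse 3 instead. G0s2, an inhibitor of triglyceride breakdown, had 134, 111, 139.8, 137 and 331, with mouse 5 above mice that were nearly level, while Plin2, the droplet coat found in most cells, had 430.3, 443, 445, 476 and 536 and a CV of 9.08%. Nnat and Cebpa, an adipocyte transcription factor, had 116, 123, 191, 98.7 and 369 for Nnat and 70.9, 80.7, 119, 68.7 and 241 for Cebpa, in the order of mice seen for Plin1. Sncg and Ifi27l2a lie outside the lists. Sncg, a synuclein of fat and nerve, had 96.1, 104, 110.1, 105 and 251, and Ifi27l2a, an interferon-induced gene, had 61.8, 122, 129, 69.9 and 411. Both set mouse 5 apart, and the part of the adipocyte markers in these values was not tested.

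Myelin genes were also high in mouse 5. Of 5 measured Schwann cell and nerve markers, 3 were wide (4.13% of all measured genes were) and all 5 were highest in mouse 5. Mbp, myelin basic protein, had 341, 299.8, 264, 279 and 949 normalized counts, and Prx, periaxin, had 119, 113, 105, 94.2 and 258. In both genes mouse 5 was more than 2 times the next mouse, and the other 4 lay close together. Sox10, the transcription factor that defines Schwann cells, was below the minimum for measured genes, with 29.8, 28.9, 29.7, 43.2 and 38.4, and its highest mouse was mouse 4. Without mouse 5, 0 of the 5 markers were wide and their median CV was 11.4%, against 49.3% with all mice.

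**Figure D4:**
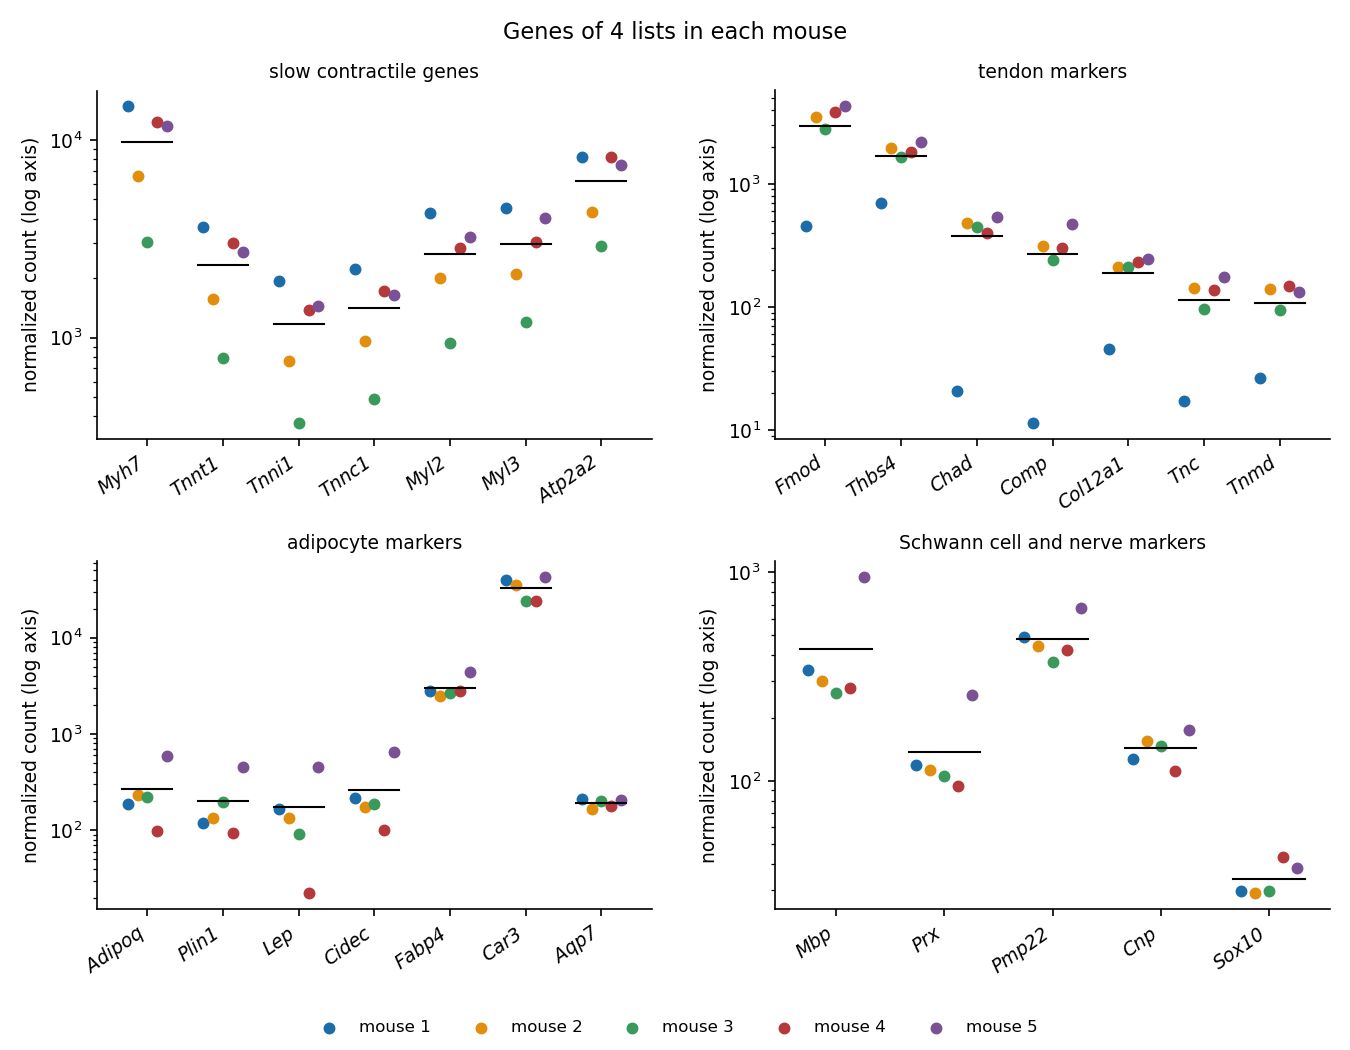
Normalized counts (log axis) of single genes are shown for the 5 mice, with 1 coloured point per mouse and a black line at the mean, in panels for slow contractile genes, tendon markers, adipocyte markers and Schwann cell and nerve markers. Mouse 3 is lowest in the slow contractile panel, mouse 1 lies far below the other 4 mice in the tendon panel, and mouse 5 is highest in most genes of the lower panels.

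Among the genes with the highest CVs, Socs3 and Cish were highest in mouse 4. SOCS3 and CISH are inhibitors that cells make in response to cytokines and growth hormone, when STAT factors bind to sites with the letters TTCNNNGAA. Because both genes varied widely, their promoters are printed here as given by RefSeq (GRCm38.p6), 250 bases before to 50 after the start, 5′ to 3′ along the gene, with each match to TTCNNNGAA in capitals. Of 32851 promoters of this length, 8.30% held such a match, on a motif that reads the same on both strands. The window of Cish is chr9:107296409-107296708 on the plus strand, and that of Socs3 is chr11:117969317-117969616 on the minus strand.
Cish: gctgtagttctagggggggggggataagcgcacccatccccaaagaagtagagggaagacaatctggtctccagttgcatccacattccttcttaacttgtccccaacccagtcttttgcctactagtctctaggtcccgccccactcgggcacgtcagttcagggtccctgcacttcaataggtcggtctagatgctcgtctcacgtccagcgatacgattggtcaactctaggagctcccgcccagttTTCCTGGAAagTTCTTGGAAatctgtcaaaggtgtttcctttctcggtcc
Socs3: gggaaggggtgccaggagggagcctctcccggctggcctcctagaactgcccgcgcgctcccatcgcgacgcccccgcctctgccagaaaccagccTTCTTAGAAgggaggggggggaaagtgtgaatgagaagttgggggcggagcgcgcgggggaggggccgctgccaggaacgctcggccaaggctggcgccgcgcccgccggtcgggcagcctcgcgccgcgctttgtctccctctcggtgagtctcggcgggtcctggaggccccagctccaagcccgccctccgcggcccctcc
The Cish window held 2 matches beside each other at the start, and the Socs3 window held 1. A match of letters is a description and does not show that a factor bound there in these mice.

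Socs3 had the highest CV of all measured genes, 143%, with 67.5, 40.9, 28.5, 431 and 39.6 normalized counts in mice 1 to 5. Mouse 4 was far above the other 4, at 15.2 times the lowest. Cish had 89.3, 1729, 528, 2456 and 425, a 27.5-fold range, with mice 4 and 2 high, mice 3 and 5 between and mouse 1 low. Socs2, a further inhibitor of growth hormone signalling that was chosen after its values were seen, had 153, 358, 126, 332 and 146, with mice 2 and 4 high. Igf1, the growth factor that growth hormone induces, had 109.9, 346, 174, 257 and 205, and it too was highest in mouse 2, followed by mouse 4, and lowest in mouse 1. The 4 genes thus shared mouse 4 among their 2 highest mice, and Cish and Igf1 shared mouse 1 as the lowest. Socs3 did not share the high value of mouse 2. Socs3 and Cish were named for their high CVs and Socs2 was chosen afterwards, so that this sharing is a description only.

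Ccn1, a matricellular protein induced by growth factors and stretch, had 495, 332, 332, 1521 and 668 normalized counts in mice 1 to 5. Cited2, a regulator of CBP and p300 coactivators, had 887, 1236, 864, 2998 and 1211. Gadd45g, a stress sensor, had 307, 253, 165, 628 and 166, and Fzd4, a Wnt receptor, had 733, 828, 631, 1484 and 828. In each of these genes mouse 4 was the highest and separated from the other 4. Irs1, an adaptor of the insulin receptor, had 923, 1508, 995, 1813 and 1007, with mice 4 and 2 high and a range just under the criterion for wide. Insr, the insulin receptor itself, had a CV of 7.39%, and Akt2, the kinase downstream, 5.72%. Over all measured genes, mouse 4 was the highest in 16.8%.

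A different set was high in mice 1 and 2. Per1, a repressor of the daily clock that glucocorticoids also induce, had 1478, 986, 407, 420.2 and 435 normalized counts in mice 1 to 5. Mice 3 to 5 were nearly level, mouse 2 was about 2 times higher and mouse 1 higher again. Ddit4, an inhibitor of mTORC1, had 355, 238, 91.6, 114 and 100.1, and Foxo1, a transcription factor of fasting metabolism, had 2745, 2285, 1269.5, 1237 and 1175, each in the same arrangement. Ciart, a clock repressor just under the minimum for measured genes, had 153, 128, 78.0, 66.5 and 62.9. Cyp26b1, which degrades retinoic acid, was high in mouse 1 alone, with 364, 32.5, 59.4, 25.5 and 105. Slc25a25, a mitochondrial ATP-Mg carrier, had 802, 364, 379, 139.7 and 269.

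The other measured clock genes had lower CVs than Per1. Of 16 measured clock genes, 1 was wide, namely Per1. The median CV was 13.9%, against 8.72% over all measured genes. When mouse 3, 4 or 5 was left out, Ciart also passed the minimum and 2 were wide. Arntl, the activator of the clock, had 254, 278, 308, 340.4 and 268 normalized counts, Nr1d1, a repressor of Arntl, 2524, 2793, 3839.6, 4166 and 2986, and Dbp, an output factor, 1190.1, 1238, 1517, 1199 and 1196. Nr1d2 and Tef had the lowest CVs of the measured clock genes, 3.60% and 5.41%. Those of Cry1, Nr1d1 and Nfil3 were 21.0%, 21.6% and 23.6%. The clock activators bind the E-box CACGTG, and the RefSeq promoter windows of Per1 and Ciart are printed for comparison with the same marking. They lie at chr11:69098699-69098998 on the plus strand, for 1 of 2 listed starts of Per1, and at chr3:95882179-95882478 on the minus strand.
Per1: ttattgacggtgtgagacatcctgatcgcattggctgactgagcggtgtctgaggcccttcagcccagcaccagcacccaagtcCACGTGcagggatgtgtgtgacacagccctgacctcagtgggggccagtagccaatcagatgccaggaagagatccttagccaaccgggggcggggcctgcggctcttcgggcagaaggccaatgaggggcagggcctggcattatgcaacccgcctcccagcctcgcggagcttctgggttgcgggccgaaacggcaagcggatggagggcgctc
Ciart: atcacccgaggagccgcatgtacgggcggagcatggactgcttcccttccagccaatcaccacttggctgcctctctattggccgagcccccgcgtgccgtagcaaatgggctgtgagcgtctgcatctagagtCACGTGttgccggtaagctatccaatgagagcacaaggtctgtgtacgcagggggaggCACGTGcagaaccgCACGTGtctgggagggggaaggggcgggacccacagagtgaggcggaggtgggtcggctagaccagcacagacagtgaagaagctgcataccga
Per1 had 1 match and Ciart 3 matches in these windows, while 7.15% of all promoters held at least 1. The other start of Per1 and the windows of Dbp and Nr1d1 held 0 matches.

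Immediate early genes, which respond within minutes to hours to activity, stress and handling, varied in more than 1 pattern. Of 10 measured genes, 6 were wide (4.13% of all measured genes were) and the median CV was 32.3%, against 8.72% over all measured genes. Atf3, a stress-induced repressor, had 1175, 769, 317, 164 and 1396 normalized counts, with mice 1 and 5 high and mouse 4 low. Nr4a3, a nuclear receptor induced by exercise, had 1730.2, 1451, 721, 287 and 1454, with mouse 4 lowest and mouse 3 next. Its relative Nr4a1 had 3600.0, 3027, 2426, 1745 and 1593, and Dusp1, a phosphatase of MAP kinases, had 882, 598, 426, 383 and 688, with mouse 1 highest in both. Fos, the classical member, was below the minimum for measured genes, with 111, 36.1, 28.5, 26.6 and 90.8. Otud1, a deubiquitinase outside the list, had 878, 519, 198, 161 and 571, with mouse 4 lowest as for Atf3. Btg2, an inhibitor of proliferation, had 485, 423, 205, 300.5 and 414, with mouse 3 lowest.

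**Figure D5:**
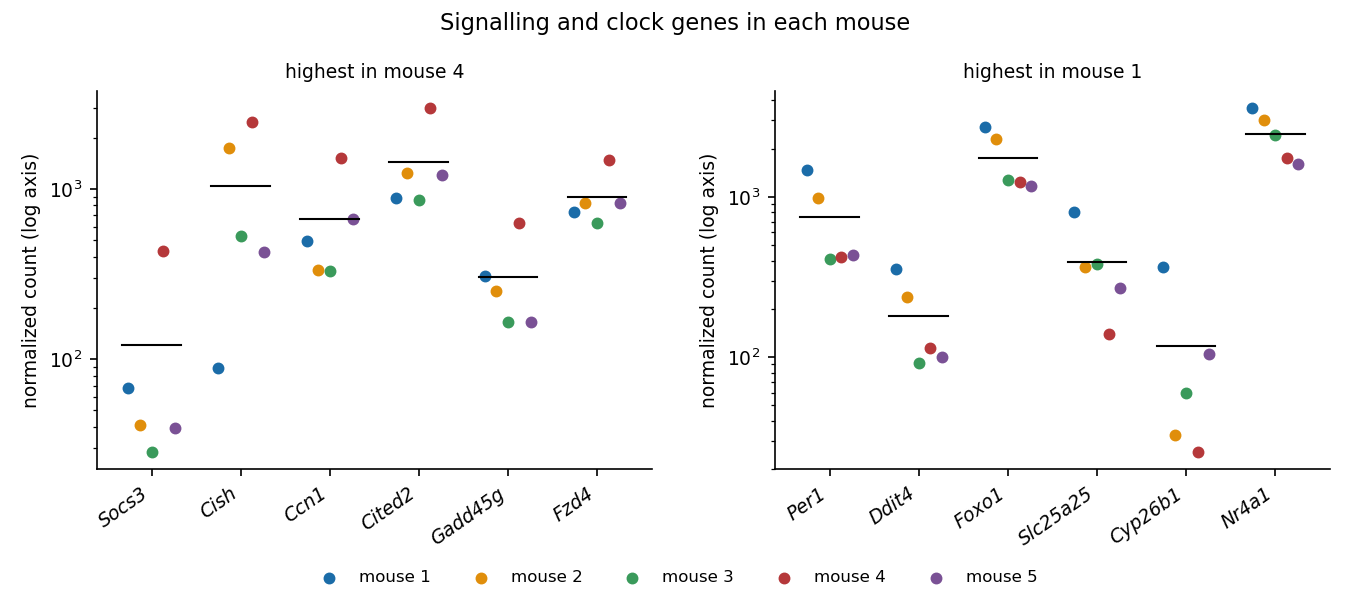
Normalized counts (log axis) of single genes are shown with 1 coloured point per mouse and a black line at the mean, with genes highest in mouse 4 on the left and genes highest in mouse 1 on the right. Socs3 stands at 431 in mouse 4 and at 68 or below in the other mice, and Per1, Ddit4 and Foxo1 share the order of mice 1 and 2 above mice 3, 4 and 5.

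Single genes stood out in mice 2 and 3. Kcnf1, a silent potassium channel subunit, had 212, 767, 86.6, 169.6 and 114 normalized counts, and Chd6, a chromatin remodeller, had 656, 1609.6, 505, 615 and 582. The heat shock chaperones Hspa1a and Hspa1b, whose near-identical sequences make their separate counts uncertain, had 558, 908, 382, 402 and 549.6 for Hspa1a and 420.0, 863, 334, 292 and 381 for Hspa1b. Tmem100, a membrane protein of endothelial and nerve cells, had 152, 329.9, 187, 114 and 161. Mouse 2 was the highest in all 5 genes. Hspa8, the constitutive relative of these chaperones, had 8392, 8551, 8842, 9332 and 8272, a CV of 4.88%.

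In mouse 3, mt-Nd3 was the exception among the mitochondrially encoded genes. This short gene (chrM:9459-9806, 348 bases) encodes a subunit of complex I and had 6436, 4513, 28947, 7042 and 4887 normalized counts, a 6.41-fold range. The other 12 mitochondrially encoded genes were not wide, and without mouse 3 the count of wide genes among the 13 was 0. mt-Nd1, another complex I subunit, had 404657, 394376, 414145, 432977 and 425181. mt-Co2, mt-Nd4l and mt-Nd6 had CVs of 18.3%, 20.3% and 20.6%, while the other 9 had CVs of 3.55% to 7.93%. Pfkfb3, which makes the activator of glycolysis fructose-2,6-bisphosphate and was chosen after its values were seen, had 2244, 2616, 5584, 4298 and 1603, also highest in mouse 3. Cited4, a transcriptional coregulator, had 190.0, 222, 393, 255 and 199, and P2ry1, a receptor for extracellular ADP, had 153, 142, 69.3, 183 and 158, so that mouse 3 was the highest for Cited4 and the lowest for P2ry1.

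Genes of muscle wasting ranged from steady to wide. Fbxo32, the ubiquitin ligase atrogin-1, had 6729.6, 7444, 6794, 7287 and 6793 normalized counts and a CV of 4.72%. Trim63, the ligase MuRF1, had 4057, 4067, 2433, 2462 and 3694, with mice 1, 2 and 5 above mice 3 and 4. Mstn, the growth inhibitor myostatin, had 1268, 1594, 1195, 1105 and 799.9, Klf15, a glucocorticoid-induced factor, 844, 789.7, 496, 672 and 616, and Igf1r, the receptor of IGF-1, 299.8, 301, 262, 251 and 292. Of 16 measured genes, 3 were wide (4.13% of all measured genes were), namely Ddit4, Cdkn1a and Tnfrsf12a, and mouse 3 was the lowest for 9. The median CV of the group was 16.1%, against 8.72% over all measured genes, and without mouse 3 it was 10.2% with 1 wide gene. The metal-binding protein Mt1 had 441, 414, 218, 277 and 456 and its relative Mt2 had 363, 379, 129, 157 and 325, with mice 3 and 4 below mice 1, 2 and 5 as for Trim63. Cox7a1, a muscle subunit of cytochrome c oxidase, had 1942, 1755, 1739.7, 2177 and 2062, and Gpx3, a secreted glutathione peroxidase, had 2942, 3727, 3282, 2680.0 and 4069.

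Blood, interferon and antigen presentation genes completed the description. Haemoglobin transcripts were low, and all 4 measured red cell markers were highest in mouse 5 and lowest in mouse 3. Hbb-bs, an adult β-globin, had 742, 894, 556, 634 and 949 normalized counts. The 2 α-globin genes are near-identical copies, so that their split is uncertain, and Hba-a1 had 509, 675, 433, 435 and 752. None of the 4 ranges reached 2-fold. Of 16 interferon genes, 4 were measured and 0 wide, with a median CV of 11.2%. Without mouse 2, Gbp2 also passed the minimum, with a mean of 95.1 over all mice. Then 1 gene was wide and the median CV was 17.4%, so that the change reflects the added gene. Of the antigen presentation genes, B2m, the light chain of class I molecules, had 1033, 953, 1216, 1002 and 1033, a CV of 9.52% and its highest value in mouse 3.

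Insulin and IGF genes had a median CV of 10.9%. Of 16, 3 were wide (4.13% of all measured genes were), namely Foxo1, Igf1 and Slc2a1, or 0 without mouse 1. Slc2a1, the basal glucose transporter GLUT1, had 184, 97.5, 91.6, 126 and 176 normalized counts, with mice 1 and 5 high, while Igfbp5, a binding protein of IGFs, had 13116, 15524, 13776, 11541 and 12055. Heat shock genes had a median CV of 15.8% with 3 of 14 wide (1 without mouse 2), and Hsp90ab1, the leading member, had 22823, 24228, 24191, 25121 and 21752. Creatine and calcium genes had a median CV of 9.60% with 0 of 11 wide, and Ryr1, the calcium release channel, had 93155, 102932, 94106, 83734 and 86257. Shared sarcomere genes had a median CV of 7.85%, and Actn2 was the only wide gene of 14, or 0 of 14 without mouse 3. Of 10 embryonic and regeneration genes, 5 were measured and 0 wide, and Myod1, the factor of myogenic identity, had 129, 224, 171, 172 and 204. Of 16 lipogenesis genes, 14 were measured and 3 wide, namely Scd1, Scd2 and Dgat2, and of 11 lipid droplet genes, 10 were measured and 2 wide, namely G0s2 and Cidec, or 1 without mouse 5. Metallothionein and zinc genes were measured for 6 of 7, and Mt1 and Mt2 were the 2 wide genes, or 1 without mouse 3.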

How the data were processed

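RNA was extracted from frozen gastrocnemius tissue with TRIzol, libraries were made with Illumina Stranded mRNA Prep, and paired-end reads from a NextSeq2000 were aligned to mm10 with DRAGEN, as the study describes. The counter and the gene annotation are not given in the sources used here. The table deposited by the authors holds a signal per gene, namely counts divided by 1 size factor per sample, and DESeq2 is named in the submitters' processing notes. Whole reads were recovered from it in all 5 columns, with 100% of values within 0.01 of a whole number and 15621189 to 17101549 reads per mouse. Intervals and floors cover counting error only.

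The group was taken from the treatment label. The sample titles of the 5 mice share 1 prefix, and no batches were compared. Nothing was tested, because no groups were compared. The mean, SD, CV and range were computed from the deposited normalized counts (Python 3.11.15, pandas 2.3.3), and the biological CV was estimated with edgeR 4.0.16 (R 4.3.3) on the recovered reads with an intercept alone. Levels per kilobase used union exon lengths of GENCODE M21 (GRCm38), which matched 21756 of 21868 genes by name. Measured genes had a mean of at least 100. A list's level in a mouse is the mean over its measured members of log2(normalized count + 1), minus the mean over mice. Promoters are from RefSeq. The scripts were tested on simulated data. The 5 mice were taken by treatment label alone, but this part of the series and the lists were chosen with earlier results of these data known.

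Genes named are the 20 highest by share and by level per kilobase, the 25 with the highest CV, the 10 with the lowest CV at a mean of at least 1000, up to 4 list members highest in mean and in CV, list members under 3 reads in every mouse, all myosin, troponin and SERCA genes, the genes of interest to the study and up to 5 wide genes per mouse with the largest Dixon ratio. Csrp3, Ankrd2, Socs2, Pfkfb3, Cited2 and further list members, such as Irs1, C1qa, Pdgfra and Plin2, were added after their values were seen, and a few genes that the rule selects are not reported here. Alternatives were DESeq2 size factors, TMM, equal totals, other minimums and thresholds, nuclear genes alone and leaving out each mouse.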

Additional observations from a re-analysis of the deposited data

Results flagged for a closer look

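Within the 5 mice, a value was set aside for a closer look when the gap from the highest or lowest mouse to its nearest neighbour exceeded 0.71 of the whole range. This held for 25 of 190 genes named in the text and for 2 of 33 gene lists with 3 or more measured members. Chance alone gives such a gap in about 1 of 20 groups, and many of the named genes were chosen for a wide spread or for this gap, so that their count is not to be read against the 4.91% of all measured genes.

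Mouse 1 was far below the other mice for Chad (gap of 0.732 of the range), Col12a1 (0.812), Col1a1 (0.927), Col3a1 (0.799), Abi3bp (0.821) and Rcn3 (0.820), and for the mean of the tendon markers (0.831). Mouse 1 was far above the others for Cyp26b1 (0.766).

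Mouse 5 was far above the other mice for the adipocyte genes Adipoq (0.730), Cidec (0.791) and Fabp4 (0.819), for G0s2 (0.868), Sncg (0.910) and Ifi27l2a (0.808), and for Cd68 (0.776), a macrophage gene with 30.9, 50.6, 49.5, 37.7 and 119 normalized counts in mice 1 to 5. It was also far above for the myelin genes Mbp (0.887) and Prx (0.849) and for the mean of the Schwann cell and nerve markers (0.739).

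Mouse 4 was far above the other mice for Socs3 (0.903), Ccn1 (0.717), Cited2 (0.825) and Fzd4 (0.769). Mouse 2 was far above for Kcnf1 (0.816), Chd6 (0.863) and Hspa1b (0.775), and mouse 3 for mt-Nd3 (0.897) and Dbp (0.855). For Dbp the range was only 1.27-fold.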

How the results depend on the processing

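Scaling, filters and single mice were varied one at a time. Of 69 summary values under other scalings, filters or thresholds, 60 moved by less than the spread between mice or by under 1.5 times. With nuclear genes alone, 127 genes held 50% of the reads, and the shares rose to 21.0% for fast contractile, 8.44% for shared sarcomere and 5.31% for glycolysis and glycogen genes, as follows from the smaller total. The median CV was 15.6% over all genes with a mean above 0. The number of wide genes was 1278 at a 1.5-fold range and 101 at a 3-fold range, and 623 with a minimum mean of 50 and 115 with a minimum of 500. Leaving out 1 mouse gave 211 to 324 wide genes. The wide genes then numbered 0 to 1 for fast contractile genes, 0 to 1 for mitochondrially encoded genes, 1 to 2 for clock genes, 0 to 8 for progenitor markers, 0 to 8 for tendon markers, 3 to 7 for macrophage markers and 0 to 3 for Schwann cell and nerve markers. The median CV ranged from 30.4% to 53.1% for slow contractile genes, 25.6% to 65.1% for adipocyte markers, 11.7% to 30.0% for progenitor markers, 17.9% to 61.5% for tendon markers, 26.4% to 45.8% for macrophage markers and 11.4% to 54.3% for Schwann cell and nerve markers. With columns scaled to equal totals, the CV of Psmc2 was 0.794%, that of Ankrd52 2.93% and that of Fbxo30 2.91%, so that the order of the steadiest genes depends on the scaling. No paired analysis was possible because 1 group was described and no groups were compared. Depth limits genes with a mean under 300, where the median counting error was 8.02%, and 5 mice limit every spread given.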
